A study of Homo sapiens with 12 samples.

Results

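The comparison described here sets refed against mock culture in wild-type (WT) HCT116 cells, a human colorectal carcinoma line. It asks which transcripts, once serum was given back, stood at, above or below their level in cells that had never lost it. Genes were taken where the deposited FPKM (fragments scaled by transcript length and by all mapped fragments) was 1 or more in either group, which gave 12948 of the 26372 genes in the tables. For each, the log2 ratio of (FPKM + 1), refed over mock, was computed.

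Refed cells spent 24 h in medium without serum before fetal bovine serum was put back. The time from serum addition to harvest is not given in the sources used here. Starved cells were kept in the serum-free medium, and mock cells grew in normal medium. The same 3 states were profiled in HCT116 cells with a KDM3A knockout (KO), and whether these are 1 clone is not stated. The labels list 12 samples, 2 in each of 6 groups, but the tables hold 1 column for each group. How the 2 samples relate to that column is not stated. Every ratio below is therefore 1 value over 1 value, with no replicate error and no test, and "higher" and "lower" describe those values alone.

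Serum carries growth factors, lipids and lysophospholipids. In many cell types its return to starved cells switches on immediate early genes through the ERK kinases and through serum response factor (SRF), which binds CArG boxes, while the YAP/TEAD transcription factors respond to its lysophospholipids. The proteins made from these genes include transcription factors that act on later genes and phosphatases that switch ERK off again. KDM3A is a histone H3 lysine 9 demethylase and itself a known target of the hypoxia-inducible factors.

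KDM3A stood at 41.3, 17.8 and 19.8 FPKM in mock, starved and refed WT cells, and at 3.15, 3.01 and 3.59 FPKM in the same states of KO cells. The labels of genotype and the KDM3A values therefore go the same way in all 6 groups. In refed WT cells KDM3A stayed at the starved level, with a log2 ratio to mock of -1.02, or -0.81 to -0.77 after the rescalings described below. Summed FPKM outside short RNA features was 444383 in refed and 522156 in mock WT cells. The 13 epithelial markers examined were all at 1 FPKM or more in both groups, with sums of 2855 FPKM in refed and 2820 FPKM in mock cells.

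One feature of the mock table touches every result below. A set of 87 genes, among them THBS1, VIM and FN1, was at least 4-fold higher in WT mock cells than in each of the 5 other groups. Of them, 10 are on a list of 18 endothelial markers, while the whole set is 87 of the 12948 genes compared. Of that list 4 of 18 endothelial markers reached 1 FPKM in refed WT cells and 17 of 18 in mock WT cells, with sums of 53.6 FPKM in refed and 301 FPKM in mock cells. Of 14 fibroblast and mesenchymal markers, 3 reached 1 FPKM in refed and 6 in mock cells, with sums of 96.7 and 409 FPKM in refed and mock cells. Of 9 leukocyte markers, CD68 alone reached 1 FPKM in each. What part these markers' cells have in the other genes that were lower in refed than in mock cells was not tested, and fewer cells of a type and less RNA per cell cannot be told apart in such samples. The 87 genes were set aside and are described at the end, as were 268 short RNA features, of which 94 were at least 2-fold higher and 56 at least 2-fold lower in refed cells.

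Of the remaining 12593 genes, 160 were at least 2-fold higher in refed than in mock WT cells, which is 1.27% of them. Another 424, or 3.37%, were at least 2-fold lower, and 12009 lay within 2-fold, so 4.64% were 2-fold apart either way. The median log2 ratio was -0.22, with quartiles of -0.45 and 0.02, so the centre of the distribution lay below 0. When the columns were rescaled to each other the excess of lower genes was smaller or gone: 243 genes were higher and 270 lower after median-ratio rescaling, 260 and 257 after upper-quartile rescaling, and 251 and 275 after setting the sums equal. For that reason the median of all 12593 genes was subtracted from each list median below. In KO cells, 184 of the same genes (1.46%) were higher and 78 (0.619%) lower in refed than in mock culture, with a median of -0.05.

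**Figure D1:**
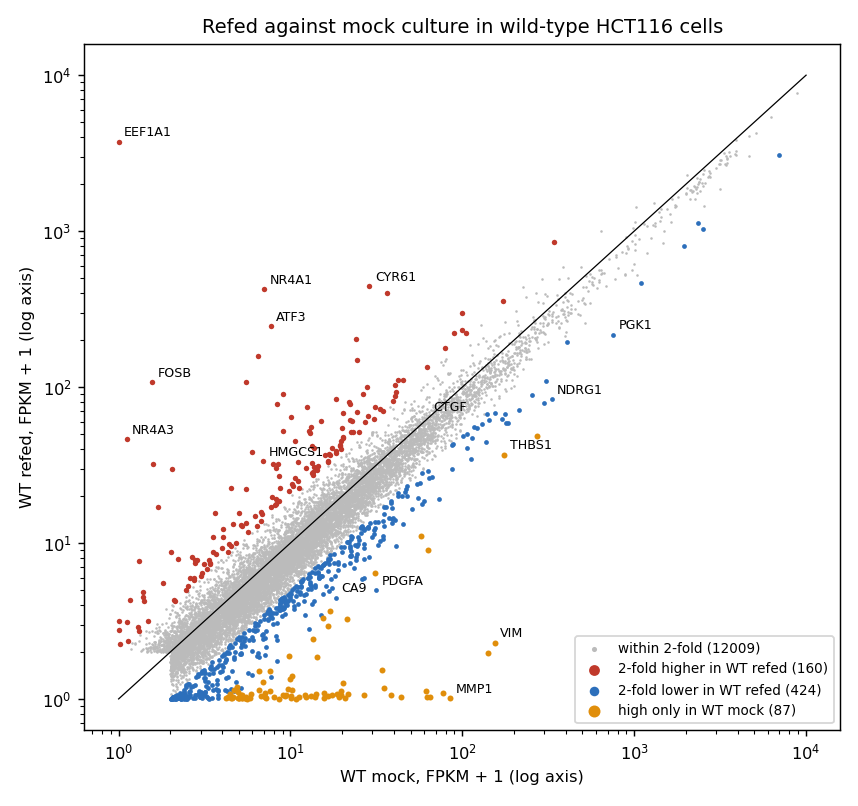
Each point is a gene, with FPKM + 1 in mock WT cells on the horizontal and in refed WT cells on the vertical log axis, and the line marks equal values. Red points are the 160 genes at least 2-fold higher in refed cells, blue points the 424 at least 2-fold lower, and orange points the 87 high only in mock WT cells, which include those furthest below the line.

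The genes furthest above their mock level were immediate early transcription factors. Of the 26 on the list, 21 were at least 2-fold higher in refed than in mock cells and none was 2-fold lower, against 1.27% of all genes higher. Their median ratio was 2.13 above that of all genes on the log2 scale. After each of the 3 rescalings 23 were higher. In KO cells 19 of the 26 were higher and the median stood 1.71 above all genes.

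The CArG box, the promoter feature bound by SRF, was looked for in RefSeq windows of build GRCh38.p14. These run from 250 bases before to 50 bases after each annotated start. The motif is CC, then 6 bases that are each A or T, then GG, and both strands were searched. Of the 21 higher immediate early genes 18 had a window, and 3 of the 18 (16.7%) held a match, against 1.60% of 27305 genes with a window. Of the 12593 compared genes 9996 had a window, so the 27305 include genes that were not compared here. They are the background for each motif share below. The 3 are EGR1, EGR2 and SRF itself. Their 250 bases before the start are shown because they carry the planned motif search, with CArG boxes in capitals, for EGR1 at chr5:138465229-138465478 (plus strand), EGR2 at chr10:62816367-62816616 (minus strand) and SRF at chr6:43171019-43171268 (plus strand). EGR2 and SRF have other annotated starts whose windows held no match.
EGR1: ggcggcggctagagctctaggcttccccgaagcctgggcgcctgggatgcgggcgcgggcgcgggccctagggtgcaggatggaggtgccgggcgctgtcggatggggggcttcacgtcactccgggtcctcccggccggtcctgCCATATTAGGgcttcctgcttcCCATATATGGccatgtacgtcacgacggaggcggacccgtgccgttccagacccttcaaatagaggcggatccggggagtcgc
EGR2: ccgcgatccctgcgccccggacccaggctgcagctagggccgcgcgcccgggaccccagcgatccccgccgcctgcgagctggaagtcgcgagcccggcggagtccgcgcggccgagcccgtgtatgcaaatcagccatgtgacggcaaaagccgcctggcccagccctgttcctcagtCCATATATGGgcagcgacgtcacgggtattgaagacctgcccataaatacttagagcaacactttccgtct
SRF: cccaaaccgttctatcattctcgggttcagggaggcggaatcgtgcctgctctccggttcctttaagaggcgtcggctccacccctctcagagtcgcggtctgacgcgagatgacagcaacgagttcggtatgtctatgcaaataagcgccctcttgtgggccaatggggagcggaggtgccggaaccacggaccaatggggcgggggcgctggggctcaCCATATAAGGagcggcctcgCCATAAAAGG
The EGR1 boxes begin 105 and 83 bases before the start, the EGR2 box 71 bases before it, and the SRF boxes 30 and 10 bases before it. A match is a stretch of letters and not a measured binding site. The cyclic AMP response element TGACGTCA, added to the search after the values were seen, was in 2 of the 18 (11.1%), JUND and MAFF. Its share over the 27305 genes with a window was 2.25%.

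FOSB, a partner of JUN in the AP-1 factor, was at 0.565, 2.08 and 106 FPKM in mock, starved and refed WT cells, a log2 ratio of 6.10 for refed over mock. Its 3 KO values in the same order were 1.77, 1.496 and 62.7 FPKM, a ratio of 4.52. The refed value was thus by far the highest of the 3 in each genotype.

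The NR4A orphan nuclear receptors followed the same order. NR4A1 was at 6.02, 9.42 and 425 FPKM in mock, starved and refed WT cells, with log2 ratios of refed over mock of 5.92 in WT and 4.85 in KO. NR4A3 was at 0.116, 0.519 and 45.2 FPKM, with ratios of 5.37 in WT and 4.93 in KO. NR4A2 was at 5.48, 8.03 and 157 FPKM, with ratios of 4.60 in WT and 4.76 in KO. On the FPKM + 1 scale none of the 3 receptors was as much as 2-fold apart between starved and mock WT cells, a scale that understates the difference for NR4A3, whose levels there were under 1 FPKM.

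ATF3, a stress- and growth-inducible repressor, was at 6.68, 6.21 and 244 FPKM in mock, starved and refed WT cells, a refed over mock ratio of 5.00. The zinc finger factors EGR3 and EGR2 had 31.2 and 28.9 FPKM in refed cells, against 0.580 and 1.05 FPKM in mock cells, with ratios of 4.35 and 3.87. FOSL1, another AP-1 subunit, stood at 203 FPKM in refed and 23.0 FPKM in mock cells, a ratio of 3.08. FOS, the best known of the family, was lower in this ranking, with 51.2 FPKM in refed and 8.01 FPKM in mock cells and a ratio of 2.54.

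Among feedback genes of the ERK pathway, 5 of 17 were at least 2-fold higher and none lower in refed cells, and the list median stood 0.45 above all genes. All 5 encode dual-specificity phosphatases, which remove phosphate from ERK, JNK or p38. DUSP5 reached 400 FPKM in refed cells, against 35.7 FPKM in mock cells, a log2 ratio of 3.45. DUSP2 had 107 FPKM in refed and 4.48 FPKM in mock cells, and DUSP1 had 77.1 FPKM in refed and 7.35 FPKM in mock cells, with ratios of 4.30 and 3.23. DUSP4 and DUSP8 were higher by 1.42 and 1.61 on the log2 scale.

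Ligands of the EGF receptor split. AREG was at 98.6, 44.8 and 297 FPKM in mock, starved and refed WT cells, so it was more than 2-fold lower after starvation and 1.58 above mock on the log2 scale after serum. EREG was higher by 1.04, with 61.8 FPKM in refed and 29.6 FPKM in mock cells. TGFA kept its starved level, with 7.82 FPKM in refed and 15.2 FPKM in mock cells. HBEGF had 7.60 FPKM in refed and 5.04 FPKM in mock cells, a ratio of 0.51, or 0.70 to 0.74 after the rescalings. In KO cells AREG was likewise higher, by 1.65, HBEGF was higher by 1.24, and TGFA was lower by 1.05.

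YAP/TEAD targets, which include matricellular proteins and regulators of the Hippo pathway itself, had 4 of 15 members higher and 2 lower, with a median 0.42 above all genes. With the 3 members that were high only in mock cells put back, 5 were lower. The list median was then -0.20 on the log2 scale, close to the -0.22 of all genes with the mock-only genes kept in. CYR61 overshot its mock level: it was at 27.8, 7.66 and 444 FPKM in mock, starved and refed WT cells, a refed over mock ratio of 3.95, and the ratio was 4.31 in KO cells. CTGF, its close relative, ended at its mock level, with 62.3, 1.24 and 64.0 FPKM in the same order and a ratio of 0.04. In KO cells CTGF was at 1.34, 1.20 and 5.09 FPKM, so its level in mock KO cells was near that in starved WT cells. ANKRD1, another target, was at 34.2, 0.00613 and 0.169 FPKM in the 3 WT states and at no more than 0.168 FPKM in any KO state.

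NUAK2 and AMOTL2, a kinase and a junction scaffold, were higher by 1.85 and 1.65 on the log2 scale, and F3, which encodes tissue factor, by 1.17. The 2 lower members, DLC1 and NT5E, had log2 ratios of -1.83 and -1.20 in WT and of 0.00 and -0.40 in KO cells. Both were also at least 2-fold higher in WT mock cells than in each of the other 5 groups.

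SRF targets of the cytoskeleton differed from the immediate early genes: 1 of 16 was higher (3 after each rescaling) and 2 were lower, with a median 0.21 above all genes. CNN2, which encodes calponin 2, was higher, with 86.1 FPKM in refed and 39.3 FPKM in mock cells and a ratio of 1.11. TAGLN, which encodes transgelin, was at 38.4, 3.84 and 13.5 FPKM in mock, starved and refed WT cells and at 7.36, 5.98 and 28.4 FPKM in the same KO states. Refed over mock was -1.44 in WT and 1.81 in KO, although refed stood above starved in both.

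Inflammatory NF-kB targets and chemokines had 3 of 13 members higher and 1 lower, and a median 0.71 above all genes. CXCL8, the neutrophil attractant interleukin-8, had 89.8 FPKM in refed and 7.99 FPKM in mock WT cells, a log2 ratio of 3.34, and 5.50 FPKM in refed and 1.20 FPKM in mock KO cells, a ratio of 1.56. CXCL2 and the cytokine LIF were higher by 1.59 and 1.20. The lower member was the adhesion molecule ICAM1, with 0.117 FPKM in refed and 2.76 FPKM in mock cells.

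Outside the lists, the 15 largest higher values included KRTAP2-3, with 16.04 FPKM in refed and 0.694 FPKM in mock cells, a keratin-associated gene with near-identical copies whose level is therefore uncertain. The largest value of all cannot be read as a response. EEF1A1, a translation elongation factor gene with many processed copies in the genome, was listed at 3742 FPKM in refed WT cells and at 0 in all 5 other groups, so no fold is given.

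Genes were next grouped by what starvation had done. At least 2-fold lower in starved than in mock WT cells were 390 of the 12593 genes (3.10%), and 44 (0.349%) were at least 2-fold higher. Both ratios share the mock column, so a mock value that is high or low by chance places a gene on the same side in starved and in refed cells. Of the 390, 310 (79.5%) were still at least 2-fold below mock after serum, 22 (5.64%) were within 1.5-fold of mock, 7 (1.79%) were at least 2-fold above it, and 51 lay between these limits. Of the 44, 34 (77.3%) were still at least 2-fold above mock, 2 were within 1.5-fold, 8 lay between and none had crossed to 2-fold below.

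Most genes that stayed away had refed values near their starved values, but the class itself limits how far they could differ. The median log2 ratio of starved over mock was -1.27 for the 310 genes and 1.18 for the 34. A gene at either median would leave its class by moving 1.5-fold back towards mock, so the counts below are partly set by the definition. Among the 310 genes, 303 had a refed value within 1.5-fold of the starved value, 7 were higher than that and none lower. Among the 34 genes, 31 were within 1.5-fold of starved and 3 higher. Genes under 2-fold in starvation numbered 12159, of which 119 were at least 2-fold higher in refed than mock cells and 114 at least 2-fold lower.

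The 7 genes at least 2-fold below mock in starved cells and at least 2-fold above it in refed cells were CYR61, JUN, AREG, FOSL2, RND3, KLF4 and PLAUR. JUN, the AP-1 subunit, was at 17.5, 8.19 and 82.6 FPKM in mock, starved and refed WT cells, a refed over mock ratio of 2.18. PLAUR, the urokinase receptor, was at 60.9, 26.9 and 133 FPKM in the same order, a ratio of 1.12. RND3, a small GTPase, and KLF4, a zinc finger factor of differentiating epithelium, had ratios of 1.37 and 1.30. In KO cells 6 of these 7 genes were at least 2-fold higher in refed than in mock culture, and KLF4 was just short of it at 0.99.

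Among the 22 genes back at mock level, CTGF had the lowest starved value relative to mock. ANKRD37, a small ankyrin repeat gene known as a hypoxia target, was at 22.7, 2.71 and 15.3 FPKM in mock, starved and refed WT cells and at 36.3, 3.12 and 31.8 FPKM in the same KO states. It was the 1 member of the hypoxia list to come back. EMP1, an epithelial membrane protein, was at 21.7, 8.42 and 22.4 FPKM, and CD55, which protects cells from complement, at 31.1, 12.2 and 35.3 FPKM. The 2 genes at least 2-fold higher in starved cells and back within 1.5-fold of mock were RNA18S5, a ribosomal RNA, and TERC, the RNA of telomerase. RNA18S5 was at 0 in each KO state, and ribosomal RNA is what poly(A) selection is meant to leave out.

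**Figure D2:**
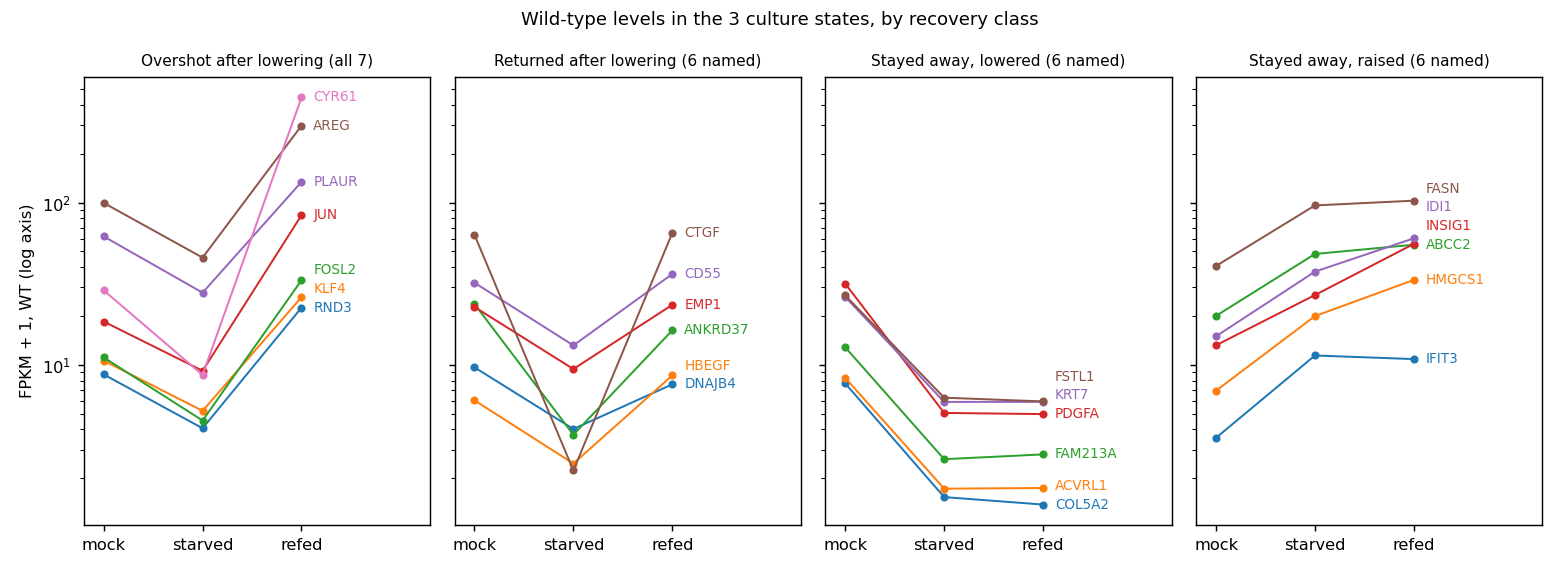
FPKM + 1 on a log axis in mock, starved and refed WT cells, 1 line for each gene, in a panel for each class: the 7 genes that overshot, and 6 named genes each that returned, stayed lower or stayed higher. Overshooting genes have their lowest value in starved and their highest in refed cells, CTGF ends at its mock level, and genes that stayed lower run flat between starved and refed cells.

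Cholesterol synthesis and uptake was the list with the most members at 2-fold above mock in starved cells. Genes of this pathway are driven by SREBP2 when sterols run low, and serum lipoproteins are a source of sterol. Of 26 members, 13 were at least 2-fold higher in refed than in mock WT cells and none lower, and the median stood 1.16 above all genes. After each rescaling 16 were higher. In starved cells 7 of the 26 were at least 2-fold higher, and all 7 stayed away. In KO cells 9 were higher in refed than mock culture, all 26 had a ratio above 0 except that SREBF2 turned to -0.03 with sums set equal, and the median stood 0.95 above all genes.

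HMGCS1, which makes the HMG-CoA used by the pathway, was at 5.93, 19.0 and 32.4 FPKM in mock, starved and refed WT cells, a refed over mock ratio of 2.27, and the KO ratio was also 2.27. IDI1, an isomerase of the isoprenoid step, was at 14.01, 36.5 and 59.3 FPKM, and INSIG1, which holds SREBP in the endoplasmic reticulum, at 12.2, 25.9 and 54.7 FPKM. All 3 thus stood higher after serum than before it. FDFT1, the squalene synthase, was at 44.1, 108 and 111 FPKM, so its starved and refed values were close and refed stood 1.31 above mock.

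Of 12 fatty acid synthesis genes, targets of the related SREBP1, 1 was at least 2-fold higher and none lower, 8 had a ratio above 0 and 4 below it, and the median stood 0.59 above all genes. The higher member was FASN, the fatty acid synthase, with 102 FPKM in refed and 39.7 FPKM in mock cells and a ratio of 1.34. SCD, the stearoyl-CoA desaturase, had 187 FPKM in refed and 122 FPKM in mock cells, a ratio of 0.61, while the elongase ELOVL5 had 26.2 FPKM in refed and 38.3 FPKM in mock cells, a ratio of -0.53.

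The sterol genes were searched for promoter motifs too, after their values were seen. Of the 13 higher members 7 had a window, none of which held the sterol regulatory element. It was searched as a single exact sequence and found in 0.0586% of the 27305 genes with a window. CCAAT, a site bound by factor NF-Y, was in 6 of the 7 (85.7%), against 39.7% of the 27305. The window of HMGCS1 at chr5:43313413-43313662 (minus strand) is shown as the member furthest above mock that stayed away, with CCAAT, here read as ATTGG on the opposite strand, in capitals at 155 and 100 bases before the start.
HMGCS1: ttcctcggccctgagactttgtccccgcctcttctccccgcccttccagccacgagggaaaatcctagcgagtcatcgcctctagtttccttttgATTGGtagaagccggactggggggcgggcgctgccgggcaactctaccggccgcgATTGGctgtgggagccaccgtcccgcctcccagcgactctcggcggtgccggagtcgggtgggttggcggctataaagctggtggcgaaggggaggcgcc

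Interferon-stimulated genes stood above mock as well. Of 19, 4 were at least 2-fold higher and none lower in refed cells, and the median stood 0.93 above all genes. After any of the 3 rescalings 9 were higher. IFIT3, an antiviral tetratricopeptide protein, was at 2.55, 10.4 and 9.85 FPKM in mock, starved and refed WT cells, and ISG15, a ubiquitin-like modifier, at 338, 547 and 848 FPKM. In KO cells 4 of the 19 were higher and all 19 had a ratio above 0.

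Genes of DNA replication had 6 of 27 members higher and none lower, with a median 0.75 above all genes. MCM5, a subunit of the replicative helicase, was at 19.3, 45.8 and 46.4 FPKM in mock, starved and refed WT cells, and UNG, the uracil glycosylase, at 14.97, 36.1 and 35.5 FPKM. E2F1, a transcription factor of S phase genes, was at 5.86, 13.3 and 14.3 FPKM. In all 3 the refed value was that of starved cells. In KO cells 4 of the 27 were higher, among them MCM5, UNG and E2F1 at 1.02, 1.17 and 1.15.

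Mitosis genes lay below mock. All 26 had a refed over mock ratio below 0, 17 of them were at least 2-fold lower, against 3.37% of all genes, and the median stood 0.99 below all genes. After the rescalings 13 to 14 were 2-fold lower, and all 26 still lay below 0. In starved cells 18 were at least 2-fold lower, of which 17 stayed away and 1 lay between. In KO cells all 26 also had a ratio below 0, 6 of them 2-fold lower, with a median 0.78 below all genes. None of the 17 was a gene in which mock WT cells stood 2-fold above every other group.

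NEK2, a centrosome kinase, was at 33.6, 10.3 and 9.67 FPKM in mock, starved and refed WT cells and at 38.0, 17.3 and 14.03 FPKM in the same KO states. KIF20A, a kinesin of cytokinesis, had 10.1 FPKM in refed and 33.6 FPKM in mock WT cells, a ratio of -1.65. CENPA, the centromeric histone, had 6.46 FPKM in refed and 21.2 FPKM in mock WT cells, a ratio of -1.57. Refed values were close to starved ones for all 3.

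Late cell cycle promoters are known for the CHR element, TTTGAA, often beside CCAAT boxes. Both were added to the search after the values were seen. Of the 17 lower mitosis genes 15 had a window, of which 10 (66.7%) held TTTGAA and 12 (80.0%) held CCAAT. The shares over the 27305 genes with a window were 18.2% and 39.7%. CCNB2, which encodes a cyclin of the mitotic kinase, at chr15:59104896-59105145 (plus strand), and CENPA at chr2:26785806-26786055 (plus strand) are shown as members with both motifs, in capitals on either strand.
CCNB2: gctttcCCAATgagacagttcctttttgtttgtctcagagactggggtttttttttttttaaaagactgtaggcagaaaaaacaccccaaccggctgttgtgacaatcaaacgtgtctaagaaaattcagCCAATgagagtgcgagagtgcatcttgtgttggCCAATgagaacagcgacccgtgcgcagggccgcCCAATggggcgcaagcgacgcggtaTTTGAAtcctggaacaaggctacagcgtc
CENPA: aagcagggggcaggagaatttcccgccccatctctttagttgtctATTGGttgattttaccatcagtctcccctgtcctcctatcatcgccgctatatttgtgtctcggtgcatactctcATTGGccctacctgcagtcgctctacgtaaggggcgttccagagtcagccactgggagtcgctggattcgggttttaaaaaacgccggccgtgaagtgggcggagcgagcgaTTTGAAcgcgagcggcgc
TTTGAA begins 29 bases before the start in CCNB2 and 18 bases before it in CENPA. The CCAAT boxes of CCNB2 begin 244, 120, 87 and 54 bases before the start, and those of CENPA, read as ATTGG, 205 and 130 bases before it.

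Cyclin-dependent kinase inhibitors were among the lower genes as well. Of 10 G1 cyclins, kinases and inhibitors, 3 were lower and none higher, and the median stood 0.18 below all genes. CDKN1B, which encodes p27 and is known to accumulate in quiescent cells, was at 20.4, 16.5 and 9.18 FPKM in mock, starved and refed WT cells, a refed over mock ratio of -1.07, and at 21.4, 18.9 and 10.6 FPKM in the same KO states. It thus stood lowest after serum in both genotypes, although rescaling brought the WT ratio to between -0.87 and -0.83. CDKN2D, the p19 inhibitor, had 7.12 FPKM in refed and 23.2 FPKM in mock cells, at the starved level. CDKN1C, the p57 inhibitor, was at 17.2, 6.65 and 5.16 FPKM in the WT states and at 25.5, 16.4 and 61.9 FPKM in the KO states.

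Among lists with at least 4 counted genes, hypoxia targets had the lowest median apart from the endothelial markers. Of 20 members 12 were at least 2-fold lower (10 to 11 after the rescalings) and none higher, and the median stood 1.07 below all genes. In starved cells 14 were lower, of which 12 stayed away, 1 lay between and ANKRD37 came back. In KO cells 8 of the 20 were lower and 1 higher, with a median 0.87 below all genes. Of the 12 lower genes 3, CA9 and LOX among them, had mock WT values 2-fold above every other group. KDM3A, the gene knocked out in KO cells, is itself on this list and counted in both genotypes. It was among the 12 lower genes in WT cells, but came within 2-fold after each rescaling.

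NDRG1, a stress-responsive gene of the hypoxia response, was at 330, 97.9 and 82.8 FPKM in mock, starved and refed WT cells and at 488, 119 and 151 FPKM in the same KO states. CA9, a carbonic anhydrase of the cell surface, had 3.46 FPKM in refed and 17.3 FPKM in mock WT cells, a ratio of -2.04. In KO cells it had 1.16 FPKM in refed and 2.92 FPKM in mock culture, a ratio of -0.86. LOXL2, a lysyl oxidase of the matrix, had 18.1 FPKM in refed and 71.8 FPKM in mock cells, a ratio of -1.93. BNIP3, a mitophagy receptor, had 43.6 FPKM in refed and 135 FPKM in mock cells, and FAM162A, outside the list, 78.0 FPKM in refed and 297 FPKM in mock cells. In WT cells all of these were lower in refed than in starved culture.

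The core of the hypoxia response element, ACGTG, was also added after the values were seen. It was in 5 of the 9 lower hypoxia genes with a window (55.6%), against 24.9% of the 27305 genes with a window. The other sets searched held it too: 6 of 15 lower mitosis genes (40.0%) and 7 of 18 higher immediate early genes (38.9%). Among higher sterol genes 2 of 7 (28.6%) had it. ACGTG also lies within the E-box CACGTG. CA9 at chr9:35673678-35673927 (plus strand) is shown as the largest lower value among those 5 that reached 5 FPKM, with the element, CACGT as read from the opposite strand, in capitals 18 bases before the start.
CA9: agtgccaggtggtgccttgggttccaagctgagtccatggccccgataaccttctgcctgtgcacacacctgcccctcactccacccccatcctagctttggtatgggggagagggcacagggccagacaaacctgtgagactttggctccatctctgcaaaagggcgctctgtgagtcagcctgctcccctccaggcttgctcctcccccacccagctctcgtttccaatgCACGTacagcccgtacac

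Glycolysis genes lay below mock. All 18 had a ratio below 0 in refed WT cells and in refed KO cells, except PFKM at 0.03 in WT after upper-quartile rescaling. At least 2-fold lower were 9 in WT (4 to 6 after the rescalings) and 4 in KO. The WT median stood 0.74 below all genes. PGK1, the phosphoglycerate kinase, was at 753, 249 and 215 FPKM in mock, starved and refed WT cells, and ALDOA, the aldolase, at 1952, 939 and 802 FPKM. LDHA, the lactate dehydrogenase, was at 1097, 546 and 465 FPKM. Refed cells had the lowest of the 3 WT values for each.

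**Figure D3:**
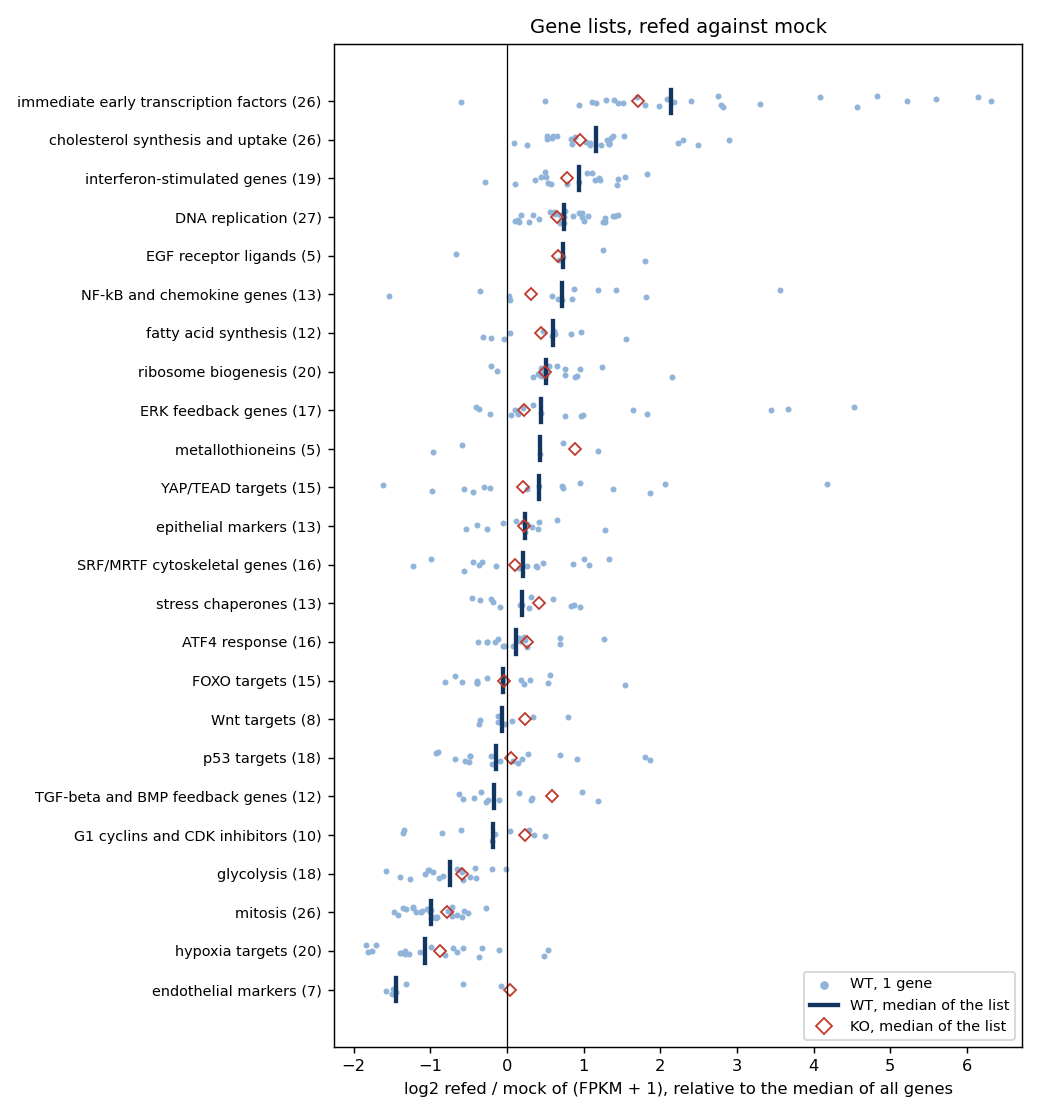
Log2 ratio of (FPKM + 1), refed over mock, relative to the median of all genes, with a row for each list. Pale points are its genes in WT cells, the dark bar is the WT median and the open red diamond the KO median. Immediate early genes have the highest medians in both genotypes, at 2.13 in WT and 1.71 in KO, and the endothelial WT median of -1.45 stands far from the KO median of 0.03.

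The remaining lists held few genes past 2-fold. Ribosome biogenesis had 2 of 20 higher, RRP12 at 1.93 and RRS1 at 1.02, and a median 0.51 above all genes. The p53 targets had 2 of 18 higher, PLK3 and BTG2, both of which are also known to respond to growth factors, at 1.64 and 1.58, and 2 lower, ZMAT3 and TP53INP1, at -1.14 and -1.12. FOXO targets had TRIB1 higher at 1.32 and CCNG2 lower at -1.03 of 15. The ATF4 response had ATF5 higher at 1.05 of 16, and epithelial markers had CLDN4 higher at 1.06 of 13. Of 5 metallothionein and zinc genes MT1X was lower, at -1.18, although close copies in that family make its level uncertain. No member of the stress chaperones (13), the Wnt targets (8) or the TGF-beta and BMP feedback genes (12 after 2 were set aside) was 2-fold apart. Their medians relative to all genes were 0.19, -0.07 and -0.17. After each rescaling ID3, an inhibitor of basic helix-loop-helix factors in the last of these lists, passed 2-fold at 1.19 to 1.23. ZMAT3, TP53INP1, CCNG2 and MT1X all came within it. MT1E, of the same metallothionein family with close copies, passed 2-fold at 1.18 to 1.22. That list thus turned from 1 lower and none higher to 1 higher and none lower.

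The largest lower value was that of PDGFA, a platelet-derived growth factor chain, at 30.6, 4.05 and 3.97 FPKM in mock, starved and refed WT cells, with refed over mock ratios of -2.67 in WT and -2.19 in KO. Several of the next largest had KO ratios near 0. COL5A2, a fibrillar collagen, was at 6.68, 0.531 and 0.377 FPKM in mock, starved and refed WT cells, with ratios of -2.48 in WT and 0.30 in KO. FSTL1, a secreted glycoprotein, had 4.95 FPKM in refed and 25.8 FPKM in mock WT cells, with ratios of -2.17 in WT and -0.05 in KO. MCAM, the adhesion molecule CD146, had 8.51 FPKM in refed and 40.3 FPKM in mock WT cells, with ratios of -2.12 in WT and 0.16 in KO. SNURF, at -1.88, overlaps SNRPN, so its level is uncertain.

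The KO pair shares no column with the WT pair, so it gives a second set of values for the same genes. Of the 160 genes higher in WT, 97 (60.6%, and 52.7% of the 184 higher in KO) were also at least 2-fold higher in KO cells, 154 had a ratio above 0 and none was 2-fold lower. Of the 424 genes lower in WT, 64 (15.1%, and 82.1% of the 78 lower in KO) were also at least 2-fold lower in KO cells, 326 had a ratio below 0 and 5 were 2-fold higher. Of all 12593 genes, 1.46% were at least 2-fold higher and 0.619% at least 2-fold lower in KO cells. The median KO ratio was 1.11 for the 160 genes and -0.48 for the 424.

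In 136 of the 424 genes (32.1%) the mock WT value was at least 2-fold above each of the 5 other groups, and 2 of these 136 were also lower in KO cells. Of the other 288, 62 (21.5%) were, against 0.619% of all genes. By class, 76 of the 119 genes higher only after serum (63.9%) were at least 2-fold higher in KO too. So were 15 of the 34 that stayed raised (44.1%), against 1.46% of all genes. Among the 310 that stayed lower, 50 (16.1%) were at least 2-fold lower in KO, against 0.619% of all genes.

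**Figure D4:**
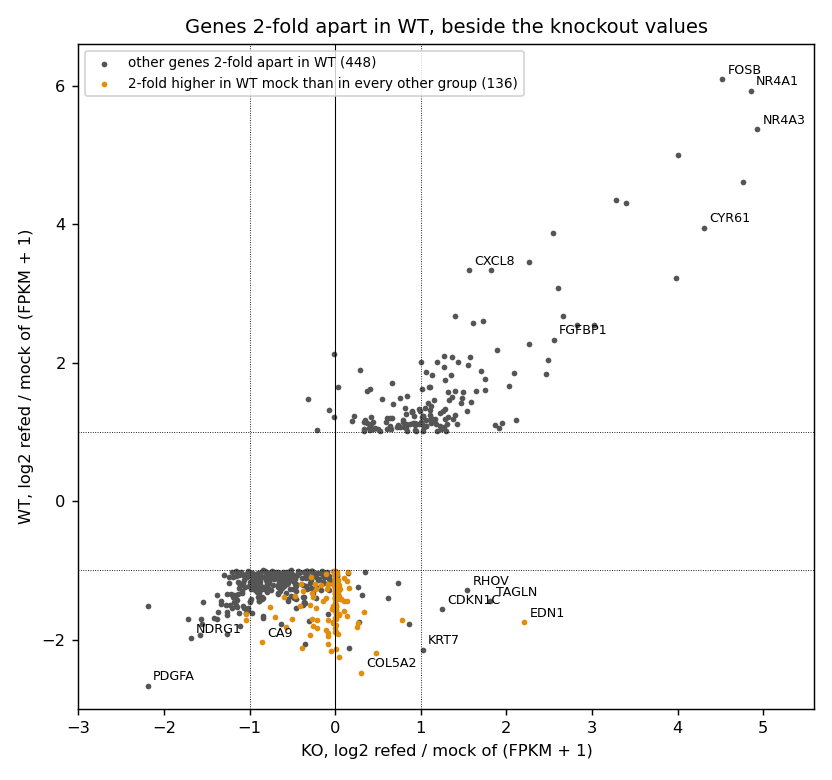
Genes at least 2-fold apart between refed and mock WT cells, with the log2 ratio of (FPKM + 1), refed over mock, in KO cells on the horizontal and in WT cells on the vertical axis. Orange points are the 136 genes whose mock WT value was 2-fold above every other group, many of which lie near 0 on the KO axis, and EEF1A1 lies outside the plotted range.

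The 87 genes high only in mock WT cells had a median of 0.0569 FPKM in refed and 9.06 FPKM in mock WT cells, and 76 of them were under 1 FPKM in refed cells. Their log2 ratios ran from -6.40 to -2.03, with a median of -2.81. By the same 4-fold rule, 3 genes were high only in refed WT cells, 2 only in refed KO cells and none only in any of the other 3 groups.

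VIM, the intermediate filament protein of mesenchymal and endothelial cells, had 1.29 FPKM in refed and 153 FPKM in mock WT cells, and FN1, fibronectin, had 0.980 FPKM in refed and 140 FPKM in mock WT cells. VWF, the von Willebrand factor that marks endothelial cells, had 0.0949 FPKM in refed and 75.9 FPKM in mock WT cells, and MMP1, a collagenase, 0.00820 FPKM in refed and 84.3 FPKM in mock WT cells. In mock KO cells these 4 genes were at 0.0640, 1.78, 0.113 and 0.143 FPKM. Lower values there are part of the rule that defines the set and are not a separate result. BGN, HSPG2, EFEMP1 and IGFBP7, which encode proteins of the extracellular matrix or secreted factors, were also among the 10 of the set with the highest values in mock WT cells, as was THBS1.

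In 85 of the 87 genes the refed value was within 2-fold of the starved value on the same scale. That count is largely set by the FPKM + 1 scale, on which 2 values under 1 FPKM cannot lie 2-fold apart. Of the 87 genes, 76 were under 1 FPKM in refed cells. In the other 2 genes, outside the 85, the refed value was at least 2-fold higher than the starved value. One of them, THBS1, which encodes thrombospondin and is a known serum-inducible gene, was at 175, 0.798 and 35.7 FPKM in mock, starved and refed WT cells and at 1.30, 0.764 and 14.04 FPKM in the same KO states. Refed THBS1 stood above starved in both genotypes, and in WT cells it stood below mock.

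**Figure D5:**
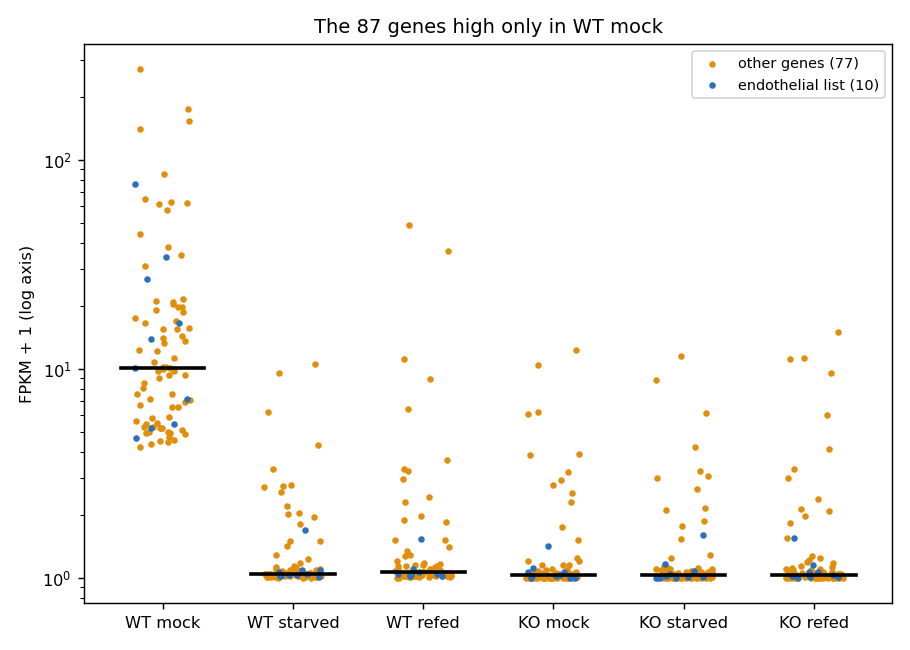
FPKM + 1 on a log axis in the 6 groups for the 87 genes high only in mock WT cells, 1 point for each gene and group, with the median as a black bar and the 10 members of the endothelial list in blue. The median lies near the bottom of the axis in refed WT cells, at 0.0569 FPKM, against 9.06 FPKM in mock WT cells.

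Of 17 compared members of the endothelial list, 10 were in the set of 87, and of the 7 others 5 were at least 2-fold lower in refed WT cells, with a median 1.45 below all genes. In KO cells none of the 7 was 2-fold apart and their median stood 0.03 above all genes. EGFL7, with 44.2 FPKM in refed and 77.2 FPKM in mock WT cells, is also expressed in KO cells, at 63.8 to 84.3 FPKM, and made up most of the summed endothelial level outside mock WT cells.

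The limits that define these sets fall in a continuous range. DYSF, VAMP5 and GDF6 were just inside the 4-fold limit for the mock-only set, and COL5A2, LOX and DCHS1 just outside, at 1.97, 1.94 and 1.93 on the log2 scale. For the 2-fold limit, MVK and PABPC1L were just inside among higher genes at 1.01, and LINC00504 and METTL1 just outside at 0.996 and 0.994. SPAG9 and DEPDC7 were just inside among lower genes, at -1.001 each, and ME3 and CDC42EP5 just outside, at -0.999 and -0.998.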

How the data were processed

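Messenger RNA of WT and KO HCT116 cells was sequenced after poly(A) selection, per the labels' protocols. The deposited tables give FPKM, computed by the authors, per the file headers, for 26372 gene symbols in 1 column for each of 6 groups. The submitters' processing notes name FastQC, cutadapt, TopHat2 and build hg19, without versions; the program that computed FPKM and its annotation are not given in the sources used here. Low values (1198 genes) showed no common step of 1 read, since at most 0.918% of them shared a ratio, so depth is unknown and no counting interval is given.

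Values were used as deposited. Log2 ratios were taken of (FPKM + 1), which understates the change of low genes, with Python 3.11.15, numpy 2.4.6 and pandas 2.3.3, and figures were drawn with matplotlib 3.10.9. Genes at 1 FPKM or more in refed or mock WT cells were compared, short RNA features and genes at least 4-fold higher in mock WT cells than in every other group were counted apart, and 2-fold was the limit for higher or lower. The scripts were tested on simulated data.

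The genes named were the 15 largest ratios in each direction and up to 6 in each recovery class, both reaching 5 FPKM in a WT column, up to 6 members of each of 26 lists, the 10 highest genes of the mock-only set, and KDM3A, CTGF, CYR61 and ANKRD1. FOS, PLAUR, genes named for a promoter match, PFKM and SREBF2, and the genes near the limits were named outside this rule, after their values were seen. Values of a few genes that this rule covers are not reported here. The members and lists were chosen with earlier results of these data known. Promoter windows came from RefSeq on GRCh38.p14; 9996 of 12593 symbols had one, and only these windows carry coordinates. Pseudocounts, minimum levels, 3 rescalings, other limits and the KO columns were tried as alternatives.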

Additional observations from a re-analysis of the deposited data

Results flagged for a closer look

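In 5 genes the refed over mock ratio was at least 2-fold in opposite directions in the 2 genotypes. With 1 value for each group the difference was not tested. Each ratio also depends on its mock column, so opposite signs need not be opposite changes from starved to refed cells. The log2 ratio of EDN1, the vasoconstrictor endothelin 1, was -1.75 in WT and 2.21 in KO cells, and that of TAGLN was -1.44 in WT and 1.81 in KO cells. CDKN1C had -1.56 in WT and 1.24 in KO cells. RHOV, an atypical small GTPase, had -1.29 in WT and 1.54 in KO cells. KRT7, a keratin, had -2.15 in WT and 1.02 in KO cells, of which the KO value came under 2-fold, at 0.95, with sums set equal. KRT7 was at 25.2, 4.91 and 4.91 FPKM in mock, starved and refed WT cells and at 7.89, 15.2 and 17.1 FPKM in the same KO states. From starved to refed cells, TAGLN was higher in both genotypes, while CDKN1C was lower in WT and higher in KO cells.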

How the results depend on the processing

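No paired analysis was possible because the columns carry no replicate number and no test was made. Every ratio is 1 value over 1 value and depth is unknown, so limits set by replicate spread or counting cannot be given. Among 115 named genes at 2-fold in WT cells, 0 changed direction under the alternatives run and 9 came under 2-fold in at least 1 of them. Of 24 list medians relative to all genes, 4 changed sign: the ATF4 response with no minimum (-0.10), and FOXO targets (0.27), TGF-beta and BMP feedback genes (0.046) and Wnt targets (0.12) at a minimum of 5 FPKM.

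Pseudocounts of 0.1 and 0.01 gave 246 and 266 genes higher, 724 and 806 lower, 482 and 524 that stayed lower, 49 and 53 that returned from lower, 11 and 12 that overshot, 87 and 105 that stayed raised, 242 and 282 lower only when refed, 146 and 159 higher in both genotypes, 171 and 203 lower in both, and 191 and 200 high only in mock WT cells. The smaller one left 5 returned from raised. The median-ratio, upper-quartile and equal-sum rescalings gave 243, 260 and 251 higher, 270, 257 and 275 lower, 73, 87 and 73 that stayed raised, 56, 63 and 54 lower only when refed, 3, 4 and 4 that overshot, and 5, 4 and 4 that returned from raised. Under the first pair 14 and 8 genes returned from lower and 41 and 37 were lower in both genotypes. Under upper-quartile rescaling 194 stayed lower and the median of all genes turned to 0.0076.

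A minimum of 5 FPKM gave 262 lower, 181 that stayed lower and 1 returned from raised. With short RNA features kept in, 254 were higher, 68 stayed raised, 8 returned from raised and 1 overshot from raised. The stricter return limit gave 6 returned from lower and 1 from raised. With the KO columns in place of WT, 51 stayed lower, 27 were lower only when refed and 1 returned from raised. Leaving out genes 2-fold above every other group in mock WT cells, an alternative added after seeing the data, left 174 that stayed lower. The mock-only set numbered 223 at 2-fold and 37 at 8-fold. The share of genes past 2-fold that were higher was 27.4% as reported and 47.4%, 50.3% and 47.7% after the 3 rescalings. Apart from the effect of each alternative's own construction, the cause was not tested.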
